A study of Homo sapiens with 4 samples.

Results

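The genes described here are 10 genes of the machinery that takes a cell from G1 into S phase: the kinases CDK4, CDK6 and CDK2, the cyclins CCND2, CCND3 and CCNE1, the pocket proteins RB1 and RBL1, the transcription factor E2F1 and the inhibitor CDKN1B. They were chosen by name, and their peaks were found by their Ensembl identifiers in the peak lists of both IGF2BP2 iRIP libraries. A sense peak is one that the lists place mainly in the CDS, a UTR, an intron or a noncoding exon of the gene, and antisense peaks were kept apart. The 10 genes held 105 of 74237 sense peaks in replicate 1 and 125 of 77288 in replicate 2. Jurkat cells are an established line from a human T cell leukaemia (T-ALL), and iRIP-seq sequences the RNA that is pulled down with IGF2BP2 after UV crosslinking. Both libraries came from Jurkat cells with no treatment or genetic change named in the labels, and the 2 input libraries of the same cells were not analysed here. With 1 condition and n = 2 libraries no groups were compared, and the values below are descriptions.

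Progress through G1 is controlled by kinases that are active only when bound to a cyclin. D-type cyclins bind CDK4 and CDK6, and cyclin E binds CDK2. These kinases phosphorylate the retinoblastoma protein and its relatives, which then release E2F transcription factors that switch on genes for DNA replication. p27, the product of CDKN1B, inhibits cyclin-CDK complexes. IGF2BP2 is an RNA-binding protein that reads m6A and is known to stabilise mRNAs it binds.

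The lists held 145715 and 137934 peaks. The height of a peak is its number of tags, and no peak lies below 4 tags in the first list or 5 in the second. At this lowest height lay 66.8% and 54.4% of the sense peaks. Sequencing depth is not known for either library, and the heights carry no correction for it. Peaks that overlapped a peak of the input were removed by the authors, so a gene without a listed peak is not shown to be unbound, and a number of peaks is not relative to the abundance of the RNA. Of 10 T cell markers, 8 had a sense peak in both replicates, beside 49.3% of protein-coding genes. CD2 had peaks in replicate 1 only and CD28 in replicate 2 only. Of 10 markers of other cell types none had a peak in both, and 5 had one in a single replicate. No sequence is printed, since no peak of the 10 genes overlapped a promoter window of the reference table. Such a window was given for 8 of the 10.

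A sense peak was present in 9 of the 10 genes in replicate 1 and in 8 in replicate 2. The same 8 genes, CDK6, CDK2, CCND3, CCNE1, RB1, RBL1, E2F1 and CDKN1B, had one in both. CCND2 had peaks in replicate 1 only, and CDK4 had none. Among 15842 protein-coding genes counted by position, 61.4% had a peak in replicate 1, 59.6% in replicate 2, 49.3% in both and 28.3% in neither. Counted by position the 10 genes gave the same numbers, 9, 8, 8 and 1. The peaks were spread very unevenly over the genes. CDK6 alone held 58.1% of the 105 peaks in replicate 1 and 55.2% of the 125 in replicate 2. CDK6, CCND3, RB1 and E2F1 together held 87.6% and 88.0%. In 6 of the 10 genes (CDK6, CDK2, CCND3, RB1, E2F1 and CDKN1B) each replicate had an exonic peak, against 24.3% of protein-coding genes. These peaks need not lie in the same exon. In 5 genes (CDK6, CCND3, RB1, RBL1 and E2F1) at least 1 peak of replicate 1 met one of replicate 2, sharing 1 bp or more of the same strand, against 16.9%. A peak of at least 10 tags was found in CDK6 in replicate 1 (4.86% of protein-coding genes), in CDK6 and E2F1 in replicate 2 (11.1%), and in CDK6 in both (4.25%).

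**Figure D1:**
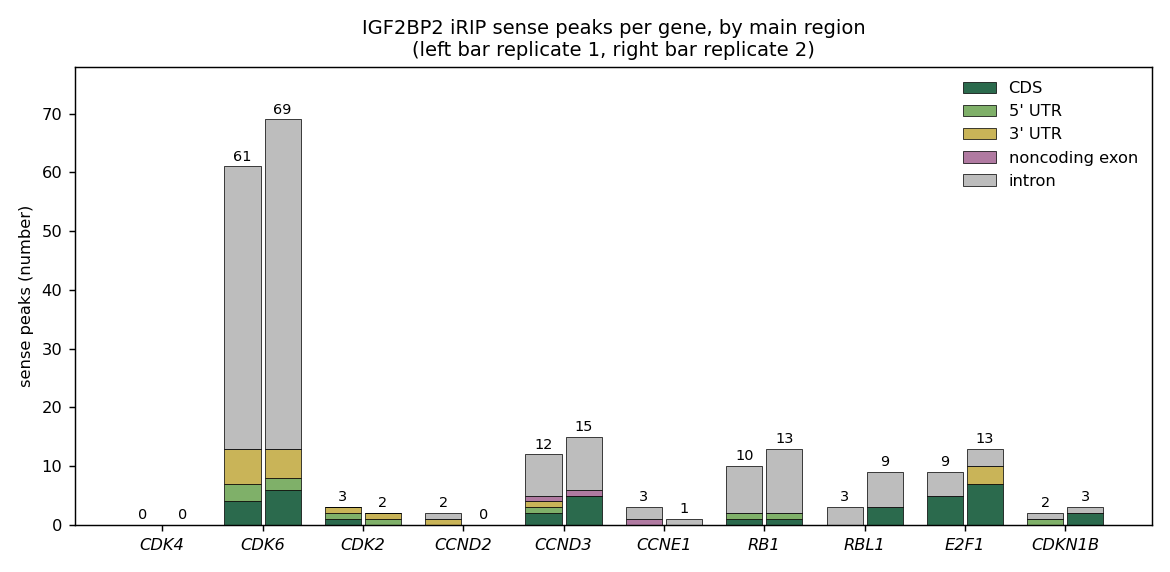
Number of sense peaks (y axis) on each of the 10 genes (x axis), with replicate 1 as the left and replicate 2 as the right bar, coloured by main region; the number above each bar is its total. CDK6 stands above the rest with 61 and 69 peaks, most of them in introns, while CDK4 has none.

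The genes differ widely in length, and long genes hold more peaks. Each gene was therefore ranked among the other protein-coding genes in its decile of gene length, with peaks counted by position. CDK6 had more peaks than 1570 of 1584 genes in replicate 1 (percentile 99.1) and 1569 in replicate 2 (99.1). E2F1 had more than 1553 of 1582 genes (98.2) and 1557 (98.4). CCND3 followed at percentiles 89.5 and 91.0. These were the only genes of the 10 above percentile 89 in both replicates. CDK2 lay at 88.4 and 79.4 and CDKN1B at 67.3 and 79.4, with the median gene of their decile at 0 peaks. RB1 lay near the middle of its decile in replicate 1 (47.0) and above it in replicate 2 (68.2). RBL1 moved most among the genes with peaks in both, from 37.7 to 82.7.

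**Figure D2:**
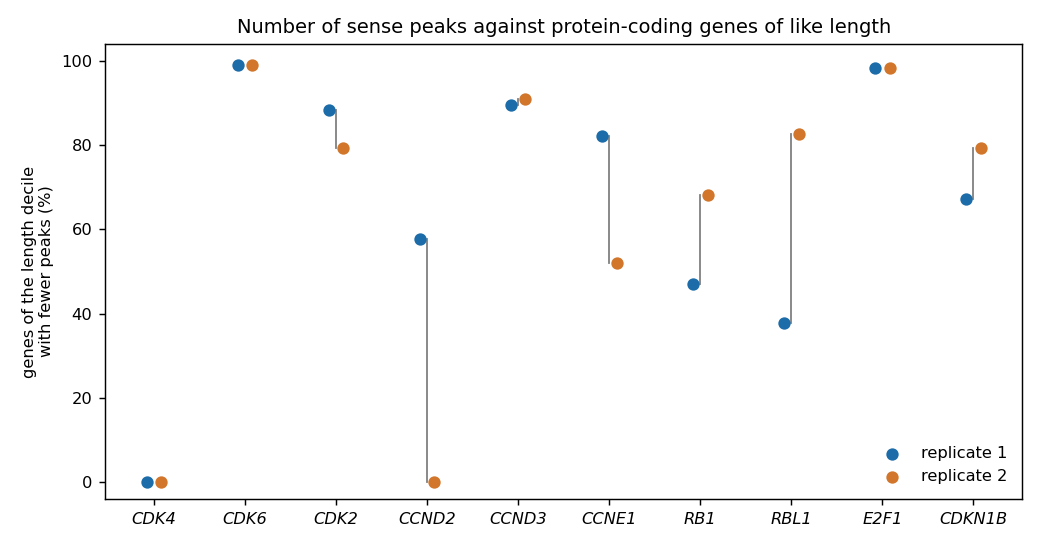
Percent of protein-coding genes in the decile of like gene length that had fewer sense peaks (y axis) for each of the 10 genes (x axis), with replicate 1 in blue and replicate 2 in orange. CDK6 and E2F1 lie above 98 in both replicates, CDK4 lies at 0, and CCND2, RBL1 and CCNE1 show the widest gaps between replicates.

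CDK4, which with a D-type cyclin starts the phosphorylation of RB, is a short gene on the minus strand of chromosome 12 (57747727 to 57752310, RefSeq GRCh38.p14, 4.58 kb). Neither list named a peak for its identifier, and no peak of any gene on either strand lay in its interval. The nearest peak was 2.74 kb away in replicate 1 and 2.38 kb away in replicate 2. The median gene of its length decile also had 0 peaks in each replicate.

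CDK6, the close relative of CDK4 that shares its D-type cyclin partners, spans 232 kb on the minus strand of chromosome 7 (92604921 to 92836573). It had 61 sense peaks in replicate 1 and 69 in replicate 2 (mean 65.0 ± 5.66, SD, n = 2). Their heights ran from 4 to 14 tags with a median of 4 in replicate 1, and from 5 to 16 tags with a median of 5.5 in replicate 2. Introns held 48 and 56 of the peaks, CDS 4 and 6, the 5′ UTR 3 and 2, and the 3′ UTR 6 and 5. In replicate 1, 16 peaks (26.2%) were overlapped by replicate 2, and in replicate 2, 15 peaks (21.7%) by replicate 1. The antisense strand of the gene had 5 and 9 peaks of at most 6 and 8 tags.

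The peaks of CDK6 lay along the whole gene. Cut into 5 equal stretches from start to end, the interval held 12, 10, 14, 14 and 11 peaks in replicate 1, and 12, 15, 15, 12 and 15 in replicate 2. The replicates met most often near the start. Within the first 5 kb, 5 of the 6 peaks of replicate 1 and 4 of the 7 peaks of replicate 2 met a peak of the other library. Beyond it the numbers were 11 of 55 and 11 of 62. The peaks mainly in CDS or the 5′ UTR of this stretch lay between 92833050 and 92833900. There replicate 2 had 1 long peak at chr7:92833050-92833550 with a listed height of 10.3 tags. It met shorter peaks of replicate 1, of 5.5 tags at chr7:92833050-92833150 and 4 tags at chr7:92833400-92833450. These peaks differ in length and the height of 10.3 is not a plain count, so their heights cannot be compared directly. Next to the long peak, 5′ UTR peaks at chr7:92833650-92833700 had 6 and 8 tags in replicates 1 and 2, and those at chr7:92833850-92833900 had 5 and 7 tags.

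The highest peak of CDK6 in replicate 2, at chr7:92774650-92774700, had 16 tags there and 6 tags in replicate 1. Intron made up most of it, with 0.1 of its length in CDS, and it lay beside an exon peak at chr7:92774800-92774850 with 5 tags in replicate 1, which met a peak of 5.5 tags in replicate 2. The highest peak in replicate 1, at chr7:92618050-92618100, had 14 tags and no overlapping peak in replicate 2. The closest peak of replicate 2, at chr7:92618150-92618200 with 6 tags, lay in CDS as well. The peak at chr7:92671400-92671500, mainly in CDS, had 7 and 12 tags, and the one at chr7:92623000-92623050, at a CDS edge, had 8 and 11 tags. Among peaks wholly inside introns, the highest of replicate 1 that was met by replicate 2 had 11 tags against 5.33 at chr7:92662300-92662350, followed by 10 tags against 5 at chr7:92651800-92651850. In the 3′ UTR a single site was met by both libraries, at chr7:92606350-92606500 with 6.67 tags in replicate 1 and 7.67 in replicate 2. The order of heights thus differed between the replicates at these sites, and neither library was the higher one throughout.

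**Figure D3:**
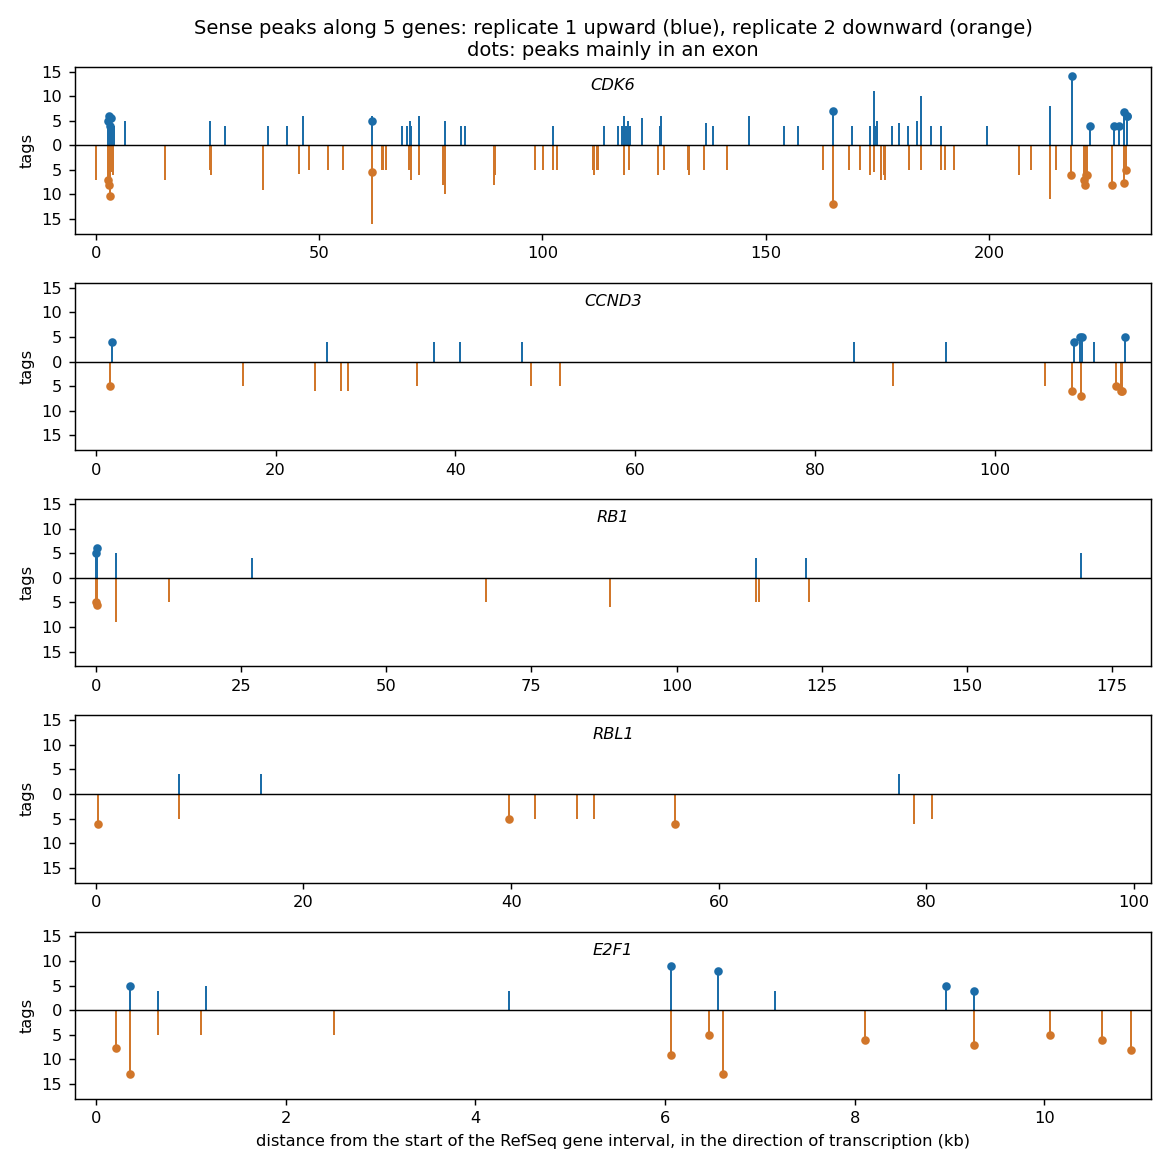
Sense peaks inside the RefSeq interval of CDK6, CCND3, RB1, RBL1 and E2F1, with the distance from the start of the gene in kb on the x axis and the height in tags on the y axis, replicate 1 drawn upward in blue and replicate 2 downward in orange; dots mark peaks mainly in an exon. Peaks cover CDK6 from end to end, most exon peaks of CCND3, its 5′ UTR peak included, lie near the end of its interval, and exon peaks of RB1 lie only at its start.

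CDK2, the kinase that cyclin E activates at the end of G1, is a 5.96 kb gene on the plus strand of chromosome 12 (55966830 to 55972789). It had 3 peaks in replicate 1 and 2 in replicate 2, all of them exonic, and no antisense peak. The highest lay in the 5′ UTR, with 8 tags at chr12:55966850-55966900 in replicate 1 and 6 tags at chr12:55966900-55966950 in replicate 2. These bins touch and do not overlap. Each replicate also had a peak listed as 3′ UTR, with 5 tags, at chr12:55967550-55967600 in replicate 1 and chr12:55967350-55967400 in replicate 2. These peaks do not overlap either, and both lay close to the start of the interval despite that label. The only CDS peak, at chr12:55971500-55971550 with 6 tags, was in replicate 1.

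CCND2 and CCND3 encode D-type cyclins. CCND2 (chromosome 12, 4273762 to 4305353, plus strand) had 2 peaks in replicate 1 and none in replicate 2. One, of 5 tags, lay mainly in an intron at chr12:4275500-4275550, and one, of 4 tags, in the 3′ UTR at chr12:4301050-4301100. Both are at or next to the lowest height of the list, and the second lies below the lowest height that replicate 2 lists. CCND3 (chromosome 6, 41934933 to 42050035, minus strand) had 12 and 15 peaks (mean 13.5 ± 2.12, SD, n = 2), of at most 5 and 7 tags. Exons held 5 of them in replicate 1 and 6 in replicate 2, of which CDS held 2 and 5. In each replicate 6 peaks lay in the last of 5 equal stretches of the gene. All CDS and UTR peaks of CCND3 lay there, also the 5′ UTR peak of replicate 1 at chr6:41941250-41941300, so the stretch is not the 3′ end alone. A single site was met by both libraries, a CDS peak at chr6:41940350-41940400 with 5 tags in replicate 1 and at chr6:41940350-41940450 with 7 tags in replicate 2. The antisense strand had 5 and 4 peaks of at most 5 and 6 tags, close to the heights on the sense strand.

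CCNE1, the cyclin that activates CDK2, had 3 peaks in replicate 1 and 1 in replicate 2 over 12.3 kb of chromosome 19 (29811991 to 29824312, plus strand). The heights were 4, 5 and 5 tags against 5 tags. The intron peak of replicate 1 at chr19:29818700-29818750 lay near the only peak of replicate 2 at chr19:29818800-29818850, without overlap. No peak of CCNE1 lay in CDS or a UTR, and the one exonic peak was in a noncoding exon.

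CDKN1B (chromosome 12, 12717368 to 12722369, plus strand) had 2 peaks in replicate 1 and 3 in replicate 2. Inside the gene, replicate 1 had a 5′ UTR peak of 6 tags at chr12:12717450-12717500. Replicate 2 had CDS peaks of 6 tags at chr12:12718050-12718100 and 7 tags at chr12:12718200-12718250. No peak of one replicate overlapped a peak of the other. The remaining peak of each replicate, of 4 and 5 tags, was listed as an intron of CDKN1B although it lay 23.8 kb and 26.8 kb before the start of the RefSeq interval.

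RB1, the retinoblastoma protein that holds E2F factors in check, spans 178 kb of chromosome 13 (48303751 to 48481890, plus strand). It had 10 peaks in replicate 1 and 13 in replicate 2 (mean 11.5 ± 2.12, SD, n = 2), with 4 peaks of each met by the other. The 3 peaks within 5 kb of the start were found in both libraries. The 5′ UTR peak at chr13:48303800-48303850 had 5 tags in each. The peak over the start of the coding sequence had 6 tags at chr13:48303900-48303950 in replicate 1 and 5.5 tags at chr13:48303900-48304000 in replicate 2. The peak at chr13:48307250-48307300, with a share of 0.42 of its length in CDS, had 5 and 9 tags. Beyond the first 5 kb, 1 of 4 peaks in replicate 1 and 1 of 6 in replicate 2 were met by the other, at chr13:48417400-48417450 with 4 and 5 tags. No peak of either replicate touched an exon of RB1 farther than 3.52 kb from its start. A further 3 and 4 peaks were listed as RB1 introns but lay past the end of the RefSeq interval. The antisense strand had 7 and 3 peaks of at most 4 and 5 tags, and in each replicate some of these also lay past that end.

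RBL1, the pocket protein p107, spans 99.6 kb of chromosome 20 (36996349 to 37095997, minus strand). It had 3 peaks in replicate 1, all intronic and all of 4 tags, and 9 peaks of 5 or 6 tags in replicate 2 (mean 6.0 ± 4.24, SD, n = 2). In replicate 1 the antisense strand had more peaks, 5 against 3, and in replicate 2 fewer, 3 against 9. CDS peaks were found in replicate 2 only, at chr20:37040150-37040200 (6 tags), chr20:37056200-37056250 (5 tags) and chr20:37095750-37095850 (6 tags). Both libraries met at 1 intron site, chr20:37087950-37088000, with 4 and 5 tags. For this gene neither the number of peaks nor their place in exons was the same in both replicates.

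E2F1, the founding member of the E2F factors, is a 10.9 kb gene on the minus strand of chromosome 20 (33675477 to 33686385). It had 9 peaks in replicate 1 and 13 in replicate 2 (mean 11 ± 2.83, SD, n = 2), the densest cover of the 10 genes at 8.25 and 11.9 peaks per 10 kb, against 2.63 and 2.98 for CDK6. Exons held 5 and 10 of them and CDS 5 and 7. The antisense strand had no peak in replicate 1 and 1 peak of 5 tags in replicate 2. The libraries met at 4 sites. The peak at chr20:33680300-33680350, shared equally between CDS and intron, had 9 tags in both. The CDS peak at chr20:33686000-33686050 near the start had 5 and 13 tags, the CDS peak at chr20:33677100-33677150 had 4 and 7 tags, and the intron peak at chr20:33685700-33685750 had 4 and 5 tags. A further CDS peak had 8 tags at chr20:33679800-33679850 in replicate 1 and 13 tags at chr20:33679750-33679800 in replicate 2, in bins that touch without overlap. The 3′ UTR had 3 peaks, of 5, 6 and 8 tags, in replicate 2 and none in replicate 1.

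**Figure D4:**
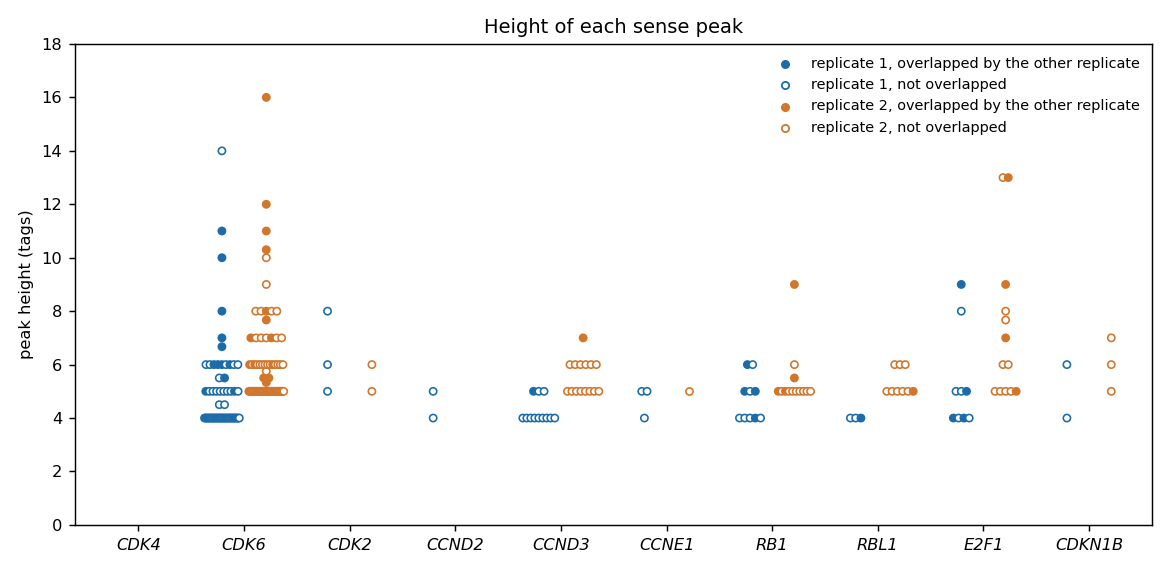
Height in tags (y axis) of every sense peak of the 10 genes (x axis), with replicate 1 in blue and replicate 2 in orange; filled points met a peak of the other library. Only CDK6 and E2F1 have peaks of 10 tags or more, up to 14 tags in replicate 1 and 16 tags in replicate 2.

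Over the 10 genes, CDS was the main region of 13 of 105 peaks in replicate 1 (12.4%, 95% Wilson interval 7.38% to 20.0%) and 24 of 125 in replicate 2 (19.2%, 13.3% to 27.0%). Over all sense peaks the shares were 19.9% and 25.6%, inside these intervals. The 3′ UTR held 8.57% (4.57% to 15.5%) and 7.20% (3.83% to 13.1%), against 3.65% and 4.0% of all sense peaks, and CDK6 held 6 of the 9 and 5 of the 9 such peaks. The 5′ UTR held 6.67% (3.27% to 13.1%) in replicate 1, against 2.78%, and 3.20% (1.25% to 7.94%) in replicate 2, against 3.33%. Introns held 70.5% (61.2% to 78.4%) and 69.6% (61.1% to 77.0%), against 69.2% and 62.4%. Without CDK6, a choice made after seeing the data, 44 and 56 peaks remained. Of these, introns held 59.1% (44.4% to 72.3%) and 55.4% (42.4% to 67.6%), and CDS 20.5% (11.2% to 34.5%) and 32.1% (21.4% to 45.2%). The intron and CDS shares of all sense peaks lay inside each of the intervals without CDK6. These intervals cover counting error only, and peaks of one gene share their RNA, so they are not independent.

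In replicate 1, 26 of the 105 peaks were overlapped by replicate 2 (24.8%, Wilson interval 17.5% to 33.8%), against 16.6% of all sense peaks. For exonic peaks the share was 41.9% (26.4% to 59.2%), against 38.1%. For intron peaks it was 17.6% (10.6% to 27.8%), against 7.11%, and CDK6 gave 9 of these 13 intron peaks. In replicate 2 the shares were 31.6% (19.1% to 47.5%) for exonic and 14.9% (8.95% to 23.9%) for intron peaks, against 30.3% and 7.12%. Without CDK6 the intron shares were 15.4% (4 of 26, 6.15% to 33.5%) and 12.9% (4 of 31, 5.13% to 28.9%). Both of these intervals hold the share of all sense peaks. Among the peaks higher than 5 tags, replicate 1 had 12 of 24 that met the other library and replicate 2 had 20 of 61 (32.8%), against 53.9% and 29.3% of all sense peaks of that height. At 5 tags or less the shares were 17.3% (14 of 81) and 7.81% (5 of 64), against 9.74% and 4.56%. CDK6 carried most of this gap in replicate 1, with 10 of 17 against 6 of 44. The other genes had 2 of 7 (28.6%) against 8 of 37 (21.6%) in replicate 1, and 6 of 24 (25.0%) against 4 of 32 (12.5%) in replicate 2. The 10 genes had 4.77 sense peaks for each antisense peak in replicate 1 and 6.25 in replicate 2, against 2.56 and 3.34 over all genes. CDK6 alone had 12.2 and 7.67. The other genes together had 2.59 in replicate 1, next to the value of all genes, and 5.09 in replicate 2. Peaks on both strands at one position were rare, with 0 of 105 and 2 of 125 peaks, both of the latter in CDK6. They were also rare over all sense peaks, at 0.672% in replicate 1 and 0.578% in replicate 2.

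**Figure D5:**
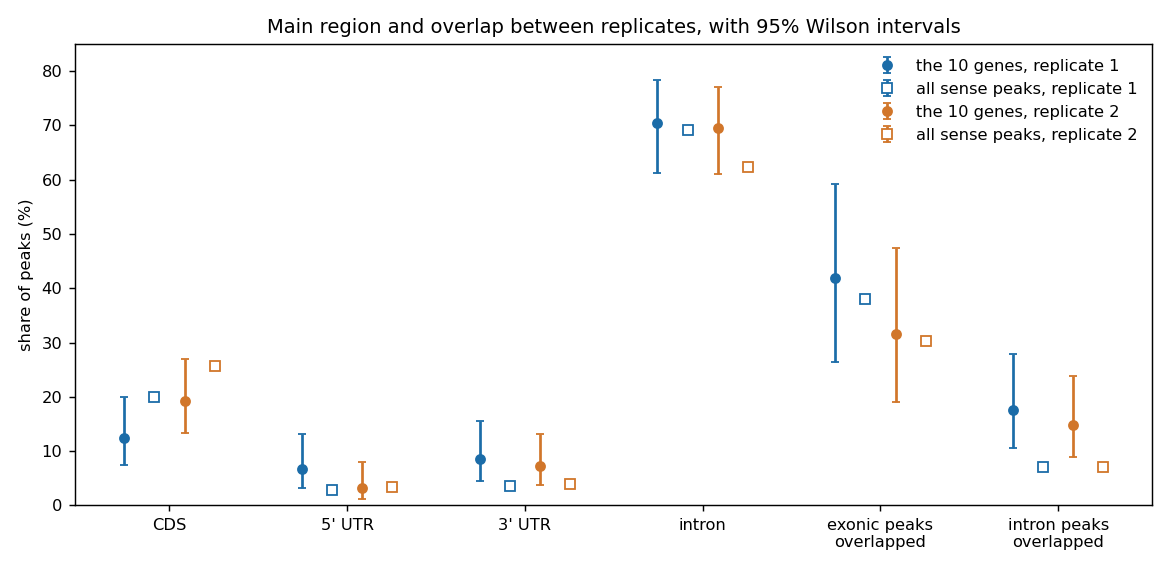
Share of peaks in percent (y axis) by main region, and share of exonic and of intron peaks overlapped by the other replicate (x axis), for the 10 genes (filled circles) and all sense peaks (open squares), with replicate 1 in blue, replicate 2 in orange and bars for 95% Wilson intervals. The CDS shares of all sense peaks lie within the intervals of the 10 genes, and the share of intron peaks that overlap is higher in the 10 genes (17.6% and 14.9%) than over all sense peaks (7.11% and 7.12%).

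A wider list of 40 genes of cell cycle control was counted beside them. It holds genes of G1 and S phase and some, such as CDK1, CDC25C, WEE1 and PKMYT1, that act at entry into mitosis. Among them are the other cyclins, CDKs and their phosphatases, CDK inhibitors, the remaining E2F and DP factors, the SCF ubiquitin ligase and the DREAM complex. Both replicates had a sense peak in 21 of these 40 genes (52.5%), close to the 49.3% of all protein-coding genes, and 13 had a peak in 1 replicate. No peak was listed for 6 of the 40 genes, beside 28.3% of all protein-coding genes. These were the cyclins CCND1 and CCNA2 and the inhibitors CDKN1C, CDKN2A, CDKN2B and CDKN2D. RBL2, the third pocket protein, had no peak in replicate 1 and 1 peak of 5 tags in replicate 2. A peak met by both libraries was present in 9 of the 40 genes, beside 16.9% of all protein-coding genes. The highest of these were in RBBP4, a histone-binding subunit of several chromatin complexes (CDS, 16 tags in replicate 1 and 24 in replicate 2), and MYBL2, a DREAM target that drives late cell cycle genes (CDS, 15 and 26). SKP1, the adaptor of SCF, followed with 12 tags in both (CDS), then CDC25B, a phosphatase that activates CDKs, with 18 and 10 tags (CDS). In 3 genes the lower height was 8 tags. These were TFDP1 (CDS, 8 and 9 tags) and TFDP2 (CDS, 8 and 8), which encode the DP partners of E2F factors, and PKMYT1, a kinase that inhibits CDK1 (5′ UTR, 8 and 15). TFDP1 had 21 and 23 sense peaks and TFDP2 43 and 44. These genes were not ranked by gene length, so their counts cannot be compared with the 9 and 13 of E2F1.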

How the data were processed

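The files used were the peak lists of 2 IGF2BP2 iRIP libraries. According to the methods and the submitters' processing notes, the authors mapped reads to GRCh38 (TopHat 2), used those with a unique position, and called ABLIRC peaks in each library separately by simulation within genes. IP peaks that met input peaks were removed. The deposited height is a signal in tags, not adjusted for depth, which is unknown. The deposited p-value of each peak served only as a filter in an alternative. Main regions and gene identifiers are the authors' own. The main region of a peak is the one that covers most of it, or the first listed in a tie. Identifiers of the 10 genes were matched with the version dropped, and all 66 of their CDS and UTR peaks lay on the right strand within 1000 nt of the RefSeq interval (GRCh38.p14). Genes of the wider list and markers were named by the position of their sense peaks, 13 of the 60 by their interval alone. The background was 15842 of 20037 protein-coding genes whose strand the promoter table gives, counted by same-strand peaks in the interval. Overlap meant at least 1 bp on the same strand, with half-open positions. Named genes were all 10, plus from the wider list those with the highest peak met by both libraries (3 tied for the fifth place, so 7 were named) and those without a peak. RBL2, CDC25C, WEE1 and CDK1 were named in addition, after values were seen. The genes and lists were chosen with earlier results of these data known. The paper calls the libraries replicates from independent iRIP experiments, without saying whether separate cultures were used. Overlap, counting and naming were tested on simulated data. Python 3.11.15, numpy 2.4.6, pandas 2.3.3, scipy 1.17.1 and matplotlib 3.10.9 were used.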

Additional observations from a re-analysis of the deposited data

How the results depend on the processing

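No paired analysis was possible because the 2 input libraries, which share the replicate numbers, were not analysed here. Height moved the values most. At 10 tags or more, 1 of the 10 genes (CDK6) and 5 of the wider list had a peak in both replicates. Among all protein-coding genes the share was 4.25%. The peaks numbered 3 and 7 in replicates 1 and 2, with CDS shares of 33.3% and 57.1%. Of the replicate 1 peaks, 0% met a replicate 2 peak that also had 10 tags or more. The CDK6 peaks of 11 and 10 tags in replicate 1 met replicate 2 peaks of 5.33 and 5 tags, which this setting leaves out. At a p value under 0.001 the numbers were 4 genes, 8 of the wider list, 20 and 27 peaks and CDS shares of 25.0% and 37.0%. The share of all protein-coding genes was not counted at this setting. At 5 tags or more, replicate 1 had 47 peaks, a CDS share of 25.5% and an overlap of 38.3%. With exonic peaks only there were 31 and 38 peaks, CDS shares of 41.9% and 63.2%, an overlap of 41.9% and 12 genes of the wider list. An exonic peak in each replicate was present in 24.3% of all protein-coding genes. Without CDK6, chosen after seeing the data, 44 and 56 peaks remained, with CDS shares of 20.5% and 32.1%. These settings by construction use fewer peaks. Leaving out replicate 1 or 2, the genes with a peak ranged from 8 to 9, the mean number of peaks from 105 to 125, and the genes of the wider list from 27 to 28. Of all protein-coding genes, 61.4% had a peak in replicate 1 and 59.6% in replicate 2. Counting peaks by position, adding antisense peaks, weighting by length, an overlap of 50%, ignoring strand and replicate 2 against replicate 1 moved none of these values beyond 1.5 times or their interval, nor did counting bins that touch (31.4% overlapped), an alternative chosen after seeing the data. Peak positions follow a grid of 50 nt bins, and most peaks of the 10 genes fill a single bin. An overlap of 1 bp thus almost always reached 50%, so that alternative could hardly have moved the value. For the peak numbers of single genes, 56 of 120 alternative values differed by more than 1.5 times, most of them at 10 tags or more, with exonic peaks only or at the stricter p value. Most peaks lay at or near the lowest listed height, so small numbers of peaks per gene carry wide error.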
